A study of Homo sapiens with 4 samples.

Results

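The genes described here encode the machinery with which the endoplasmic reticulum (ER) takes in, folds and disposes of secretory and membrane proteins. A list of 52 such genes was matched by symbol to the named probe sets of the array, and 32 of them had at least 1 probe set, among 14884 named genes in all. All 32 passed the filter on dim probe sets, which left 12755 genes for testing. Expression was measured on 4 Affymetrix arrays of MDA-MB-231Br cells, which derive from the triple-negative breast cancer line MDA-MB-231 and carry that line's name in the sample titles. In 2 arrays the cells carried a lentiviral short hairpin RNA against YTHDF3 (shYTHDF3), a cytoplasmic reader of N6-methyladenosine on RNA, and in 2 a control hairpin (shControl); puromycin selection was applied in both groups. The labels do not say how many hairpin sequences or independent cultures stand behind each group, so the p-values reflect spread between samples that may be technical replicates.

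Proteins enter the ER through the SEC61 channel, and signal peptidase removes their signal peptides. Inside, the HSP70-type chaperone BiP with its cofactors, the lectin chaperones calnexin and calreticulin, and disulfide isomerases fold them. Proteins that do not fold are returned to the cytosol by ER-associated degradation (ERAD), in which a ubiquitin ligase complex built on SEL1L passes them to the proteasome, and damaged stretches of the ER are removed by autophagy (ER-phagy), a process linked to the ubiquitin-like modifier UFM1. Many of these genes are induced by the unfolded protein response, whose transcription factors ATF6 and XBP1 act at ER stress elements in promoters.

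Of the 32 tested genes, 5 fell in shYTHDF3 arrays and 0 rose by limma at an adjusted p under 0.05. Across all tested genes 0.666% were called lower and 0.0862% higher by the same rule. The 5 were SDF2L1, MANF and HYOU1, all cofactors or relatives of BiP, and SEL1L and DERL2, both parts of the membrane complex of ERAD. At an unadjusted p under 0.05, 18 were lower and 2 higher, against 8.48% and 6.24% of all tested genes. Both shYTHDF3 arrays lay below both control arrays for 23 of the 32 and above them for 5, where 22.8% and 22.6% of all tested genes were placed so. The median log2 fold change of the 32 was -0.34, against 0.00 over all tested genes. The list was chosen with earlier results of these data known, so these shares and this median are not an independent test. Of 78 other tested ER pathway genes, 11 (14.1%) were lower and 3 higher at an unadjusted limma p under 0.05, with a median of -0.04. Calls depended on both control arrays: with shControl replicate 1 or shControl replicate 2 left out, 0 of the 32 and 0 of all genes were called, and 3 of the 32 were called without shYTHDF3 replicate 1 and 3 without shYTHDF3 replicate 2.

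**Figure D1:**
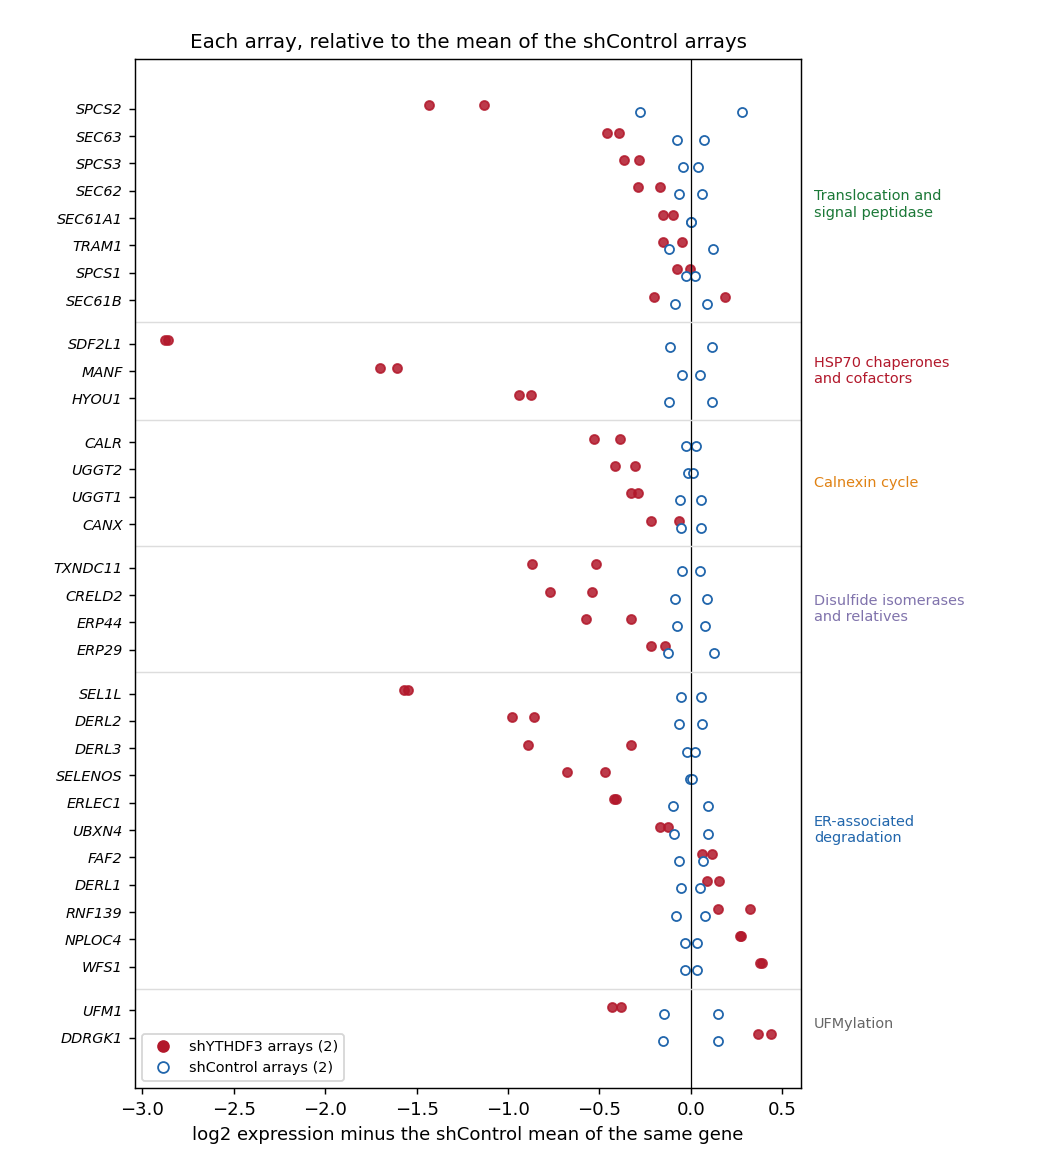
Log2 expression of each tested gene on each array, after subtracting that gene's mean over the shControl arrays (horizontal axis, log2 units), with genes grouped by role down the page. Filled points are the 2 shYTHDF3 arrays and open points the 2 shControl arrays; the shYTHDF3 points of SDF2L1, MANF, SEL1L and SPCS2 lie farthest left, and those of WFS1, NPLOC4 and DDRGK1 lie right of their controls.

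Promoters with an exact match to a known ER stress element are shown first, whether or not the gene passed the test. Of the 5 genes called lower, SDF2L1 and HYOU1 had an exact match in the window searched, and MANF, SEL1L and DERL2 had none. Sites that differ from a motif by any fixed letter were not searched for. RefSeq promoters (GRCh38.p14, 250 bases before to 50 bases after each annotated start) were searched on both strands for 4 motifs. Of the 52 listed genes 45 matched, and of the 32 tested genes 26 matched; DERL1, DERL3, DDRGK1, RNF139, SPCS1 and TRAM1 did not. The ER stress element ERSE (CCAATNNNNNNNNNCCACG) was present in 27 of 35116 promoters (0.0769%) and in those of 6 of the 45 genes (13.3%), of which CALR, CANX and CRELD2 were tested. ERSE-II (ATTGGNCCACG) was present in 19 promoters (0.0541%) and in those of 3 of the 45 genes, of which SDF2L1 and HYOU1 were tested. Here and below, the first share counts promoters and the second counts genes, which can have several promoters. Many genes of the list are known targets of the factors that act at such elements. A higher share in the list is therefore no independent finding. In the stretches below, given 5′ to 3′ on the gene's strand, capitals mark the fixed letters of these motifs, and in HYOU1 also the core of the unfolded protein response element (TGACGTG), which overlaps the first ERSE-II.
SDF2L1, chr22:21642089-21642148, plus strand: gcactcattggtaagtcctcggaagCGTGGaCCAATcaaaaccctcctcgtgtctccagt
HYOU1, chr11:119057258-119057407, minus strand: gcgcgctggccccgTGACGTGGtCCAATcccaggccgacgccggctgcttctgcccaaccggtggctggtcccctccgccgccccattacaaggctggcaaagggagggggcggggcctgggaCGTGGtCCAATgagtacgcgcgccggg
CRELD2, chr22:49918533-49918592, plus strand: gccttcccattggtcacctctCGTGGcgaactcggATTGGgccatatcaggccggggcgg
CALR, chr19:12938363-12938422, plus strand: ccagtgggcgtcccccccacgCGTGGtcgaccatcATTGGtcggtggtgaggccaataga
CANX, chr5:179698757-179698816, plus strand: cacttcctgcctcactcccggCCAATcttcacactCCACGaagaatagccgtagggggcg

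The elements of SDF2L1, HYOU1, CRELD2 and CALR were found on the strand opposite to the gene and that of CANX on the gene's strand. The log2 fold changes of these 5 genes were -2.87 for SDF2L1, -0.91 for HYOU1, -0.66 for CRELD2, -0.46 for CALR and -0.14 for CANX, and the first pair passed the test. The 21 tested genes with a matched promoter and no exact match to either element had a median of -0.36, a range of -1.65 to 0.38 and 3 called lower. The 5 had a median of -0.66, which is CRELD2's own value, a range of -2.87 to -0.14 and 2 called lower. Over all tested genes 0.666% were called lower. The difference between the 21 and the 5 was not tested. The core TGACGTG was present in 692 promoters (1.97%) and in those of 8 of the 45 genes. The composite site of CHOP and ATF4 (TGATGNAAN) was present in 1268 promoters (3.61%) and in that of 1 of the 45 genes, which was not tested. A match describes letters in the window and is not evidence of binding. For the 3 other genes called lower, the last 120 bases before the start are given for comparison; none of the 4 motifs was found in their promoters, which says only that those exact letters are not in the windows searched.
SEL1L, chr14:81533854-81533973, minus strand: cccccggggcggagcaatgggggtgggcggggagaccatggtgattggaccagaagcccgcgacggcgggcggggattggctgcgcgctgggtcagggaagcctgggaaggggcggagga
MANF, chr3:51385171-51385290, plus strand: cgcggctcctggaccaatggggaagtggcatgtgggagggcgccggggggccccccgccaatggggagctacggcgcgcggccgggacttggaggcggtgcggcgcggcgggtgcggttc
DERL2, chr17:5486179-5486298, minus strand: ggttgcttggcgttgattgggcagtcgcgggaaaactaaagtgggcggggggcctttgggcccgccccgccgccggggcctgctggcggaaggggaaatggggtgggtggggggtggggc

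**Figure D2:**
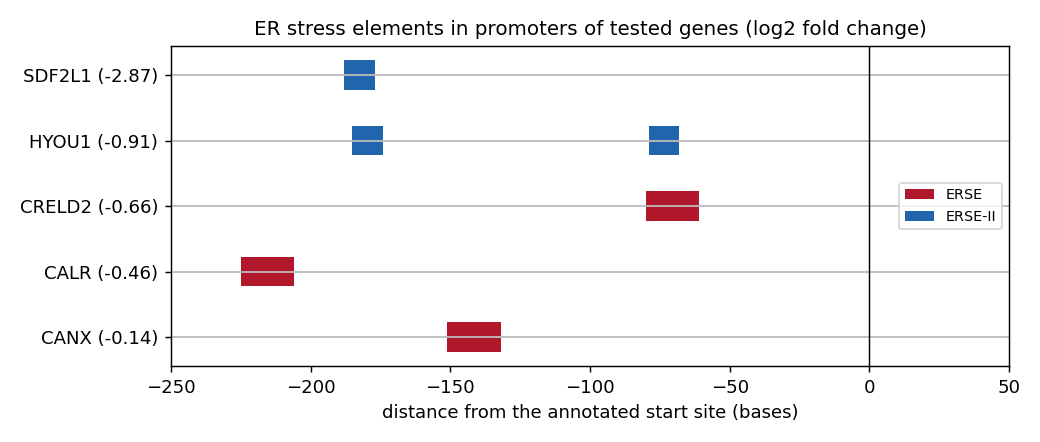
Position of ERSE (red) and ERSE-II (blue) in the promoters of the 5 tested genes that hold one, as distance in bases from the annotated start site (vertical line), with each gene's log2 fold change in brackets. HYOU1 holds 2 ERSE-II elements and the others 1 element each.

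Among the chaperones of the HSP70 type and their cofactors, each of the 3 tested genes of 11 listed fell, where 0.666% of all tested genes were called lower. These calls were lost when either shControl array was left out. SDF2L1, an ER protein that works with the BiP co-chaperone DNAJB11, had log2 expression of 5.30 and 5.28 in shYTHDF3 arrays, against 8.04 and 8.27 in shControl arrays. Its arrays were far apart between groups and close within them. The log2 fold change was -2.87 (SE 0.14, 95% interval -3.19 to -2.54), a 7.29-fold fall with a limma adjusted p of 0.00040. MANF, which binds BiP in the ER and can be secreted as a survival factor, had 5.96 and 6.05 in shYTHDF3 arrays, against 7.61 and 7.71 in shControl arrays. It fell 3.15-fold (log2 fold change -1.65, SE 0.13, limma adjusted p = 0.0026). HYOU1, the large HSP70 relative that exchanges nucleotide on BiP, had 9.49 and 9.42 in shYTHDF3 arrays, against 10.25 and 10.48 in shControl arrays. Its fall was 1.88-fold (log2 fold change -0.91, SE 0.14), and the limma adjusted p of 0.046 lay close to the threshold. The call held in 6 of 14 alternative settings and was lost with any 1 array left out and, at 0.061, when dim probe sets were kept in the test. HSPA5 (BiP itself), HSP90B1, HSPA13, SIL1, DNAJB9, DNAJB11, DNAJC3 and DNAJC10 were not analysed here.

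The calnexin cycle keeps glycoproteins bound to lectin chaperones until they fold. All 4 of its listed genes were tested and none passed. In each the shYTHDF3 arrays lay below both control arrays, where 22.8% of all tested genes were placed so. CALR, the soluble lectin chaperone calreticulin, had 12.15 and 12.01 in shYTHDF3 arrays, against 12.50 and 12.56 in shControl arrays, a log2 fold change of -0.46 (95% interval -0.76 to -0.15) with a limma adjusted p of 0.18. UGGT2 and UGGT1, which add glucose back to unfolded glycoproteins, had log2 fold changes of -0.36 and -0.31. CANX, the membrane-bound calnexin, had the smallest difference, at 11.21 ± 0.11 in shYTHDF3 arrays and 11.35 ± 0.08 in shControl arrays (SD, n = 2 each). Its log2 fold change of -0.14 had a 95% interval of -0.46 to 0.17.

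Of 8 listed disulfide isomerases and relatives 4 were tested and none passed. All 4 had lower values in both shYTHDF3 arrays than in either control array, where 22.8% of all tested genes were placed so. CRELD2, a secreted ER stress protein with isomerase-like motifs, had 4.77 and 4.53 in shYTHDF3 arrays, against 5.21 and 5.39 in shControl arrays. Its log2 fold change was -0.66 (SE 0.15) with a limma adjusted p of 0.11. TXNDC11, a thioredoxin-domain protein of the ER membrane, had 6.08 and 6.43 in shYTHDF3 arrays, against 7.004 and 6.91 in shControl arrays, a log2 fold change of -0.70 (SE 0.16, limma adjusted p = 0.12). ERP44, which holds ER oxidases in the early secretory pathway, and ERP29, a PDI-like chaperone, had log2 fold changes of -0.45 and -0.18. PDIA3, PDIA4, PDIA6 and TXNDC5 were not analysed here. Over the 3 folding groups together 11 of 11 tested genes had a negative fold change, where 49.2% of all tested genes did, and their median was -0.46.

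Of 16 listed ERAD genes 11 were tested, 2 fell, 0 rose and 9 did not pass, where 0.666% of all tested genes were called lower. In sign, 6 fold changes were negative (54.5%) and 5 positive, close to the 49.2% negative among all tested genes. Their median was -0.15. SEL1L, the adaptor that holds the ubiquitin ligase SYVN1 in its complex, had 8.51 and 8.53 in shYTHDF3 arrays, against 10.02 and 10.13 in shControl arrays. It fell 2.94-fold (log2 fold change -1.56, SE 0.13, limma adjusted p = 0.0031). DERL2, a derlin of the retrotranslocation channel, had 8.84 and 8.72 in shYTHDF3 arrays, against 9.76 and 9.64 in shControl arrays, a 1.89-fold fall (log2 fold change -0.92, SE 0.13, limma adjusted p = 0.035). The groups did not overlap for either gene, where 22.8% of all tested genes lay wholly lower in shYTHDF3 arrays. SEL1L kept its call when either shYTHDF3 array was left out. It lost the call when either shControl array was left out and with the replicate block. DERL2 lost its call with any 1 array left out and with the replicate block. With 1 array left out the log2 fold change ran from -1.61 to -1.50 for SEL1L and from -0.98 to -0.85 for DERL2.

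The 3 derlins did not share 1 direction, though the difference between the genes was not tested. DERL3 had 4.44 and 5.00 in shYTHDF3 arrays, against 5.31 and 5.35 in shControl arrays, a log2 fold change of -0.61 with a wide 95% interval of -1.06 to -0.16. Leaving out shYTHDF3 replicate 1 gave -0.33, and leaving out shYTHDF3 replicate 2 gave -0.89. DERL1 had 9.70 and 9.63 in shYTHDF3 arrays, against 9.59 and 9.49 in shControl arrays, a log2 fold change of 0.12 (95% interval -0.18 to 0.42). SELENOS, a selenoprotein that helps bring the ATPase VCP to the channel, had 5.48 and 5.69 in shYTHDF3 arrays, against 6.15 and 6.16 in shControl arrays. Its log2 fold change was -0.57 with a limma adjusted p of 0.13. ERLEC1, a lectin that recognises trimmed glycans on ERAD clients, had a log2 fold change of -0.42.

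None of the 5 ERAD genes with positive fold changes passed. WFS1, the ER membrane glycoprotein wolframin, had 8.60 and 8.59 in shYTHDF3 arrays, against 8.17 and 8.24 in shControl arrays. Its log2 fold change was 0.38 (95% interval 0.09 to 0.68, limma adjusted p = 0.23). NPLOC4, a cofactor that lets VCP bind ubiquitinated clients, and RNF139, an ER ubiquitin ligase, had 0.27 and 0.23. FAF2 and UBXN4, which recruit VCP to the ER membrane, had 0.09 and -0.15, and the arrays of the groups overlapped for FAF2. SYVN1, HERPUD1, EDEM1, OS9 and RNF5 were not analysed here.

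**Figure D3:**
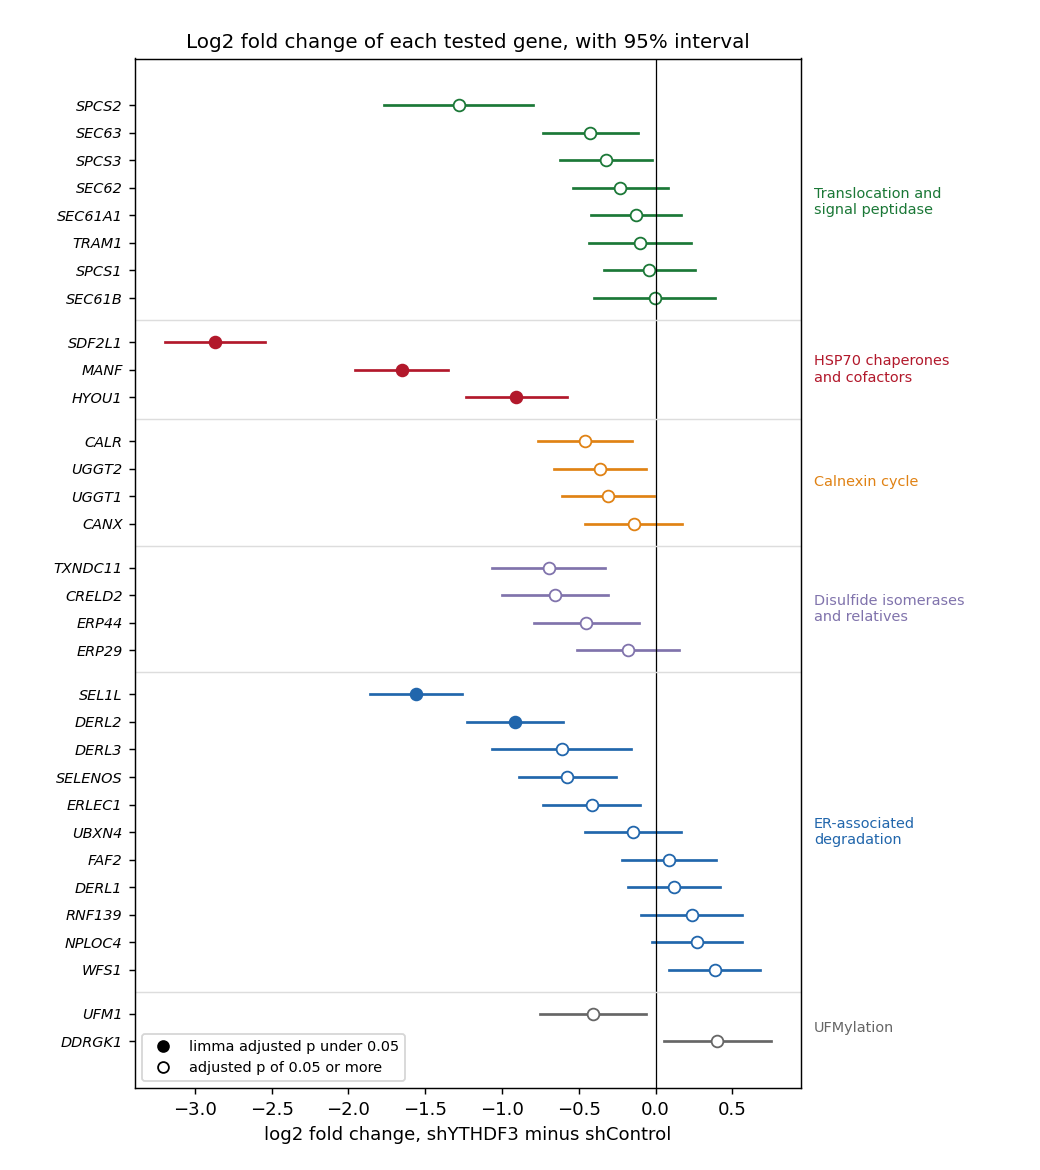
Log2 fold change (shYTHDF3 minus shControl, horizontal axis) of the 32 tested genes with 95% intervals from limma, grouped by role; filled points have an adjusted p under 0.05. The 5 filled points lie between -2.87 and -0.91, and the open point of SPCS2 lies at -1.28 with a wider interval.

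Of 9 listed genes of translocation and signal peptidase 8 were tested, and none passed. All 8 fold changes were negative, with a median of -0.18, where 49.2% of all tested genes were negative. The signs of SEC62 and TRAM1 depended on the probe set, as described below, and with the second probe set the median was -0.083. SEC61B (-0.01) and SPCS1 (-0.04) hardly differed between groups. SPCS2, a subunit of signal peptidase, had 4.73 and 5.03 in shYTHDF3 arrays, against 6.44 and 5.88 in shControl arrays. Its log2 fold change was -1.28 (95% interval -1.77 to -0.80), and its limma adjusted p of 0.050 lay just above the threshold. Like HYOU1, SPCS2 passed in 6 of 14 alternative settings, including the looser threshold. Its shControl arrays differed by more than for any other tested gene of the list. Of the other accessory subunits, SPCS3 had a log2 fold change of -0.32 and SPCS1 of -0.04. The catalytic subunits, from the list of other ER pathway genes, had -0.70 (SEC11C) and -0.03 (SEC11A), and neither passed. SPCS1 had 8.55 and 8.61 in shYTHDF3 arrays, against 8.64 and 8.59 in shControl arrays, so the groups overlapped.

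The channel genes themselves differed little. SEC61A1, the pore subunit, had 9.97 and 10.03 in shYTHDF3 arrays, against 10.12 in both shControl arrays, a log2 fold change of -0.13 (95% interval -0.42 to 0.17). SEC61B, a small subunit of the channel, had 8.24 and 8.62 in shYTHDF3 arrays, against 8.35 and 8.53 in shControl arrays. Its log2 fold change was -0.01 (95% interval -0.40 to 0.38), and the shYTHDF3 arrays lay on both sides of the controls. SEC63, the J-domain protein that brings BiP to the channel, had 8.77 and 8.71 in shYTHDF3 arrays, against 9.24 and 9.09 in shControl arrays, a log2 fold change of -0.43 with a limma adjusted p of 0.21. SEC62, its partner and also a receptor for ER-phagy, and TRAM1, which assists insertion of nascent chains, had -0.23 and -0.10. SEC61G was not analysed here.

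HYOU1, SEC62 and TRAM1 each had 2 probe sets above the filter, and the pairs did not move alike. The dimmer probe set of HYOU1 had 4.80 and 4.49 in shYTHDF3 arrays, against 4.51 and 5.10 in shControl arrays, a log2 fold change of -0.16 with overlapping groups. The dimmer probe set of SEC62 had 7.52 and 7.05 in shYTHDF3 arrays, against 5.83 and 6.49 in shControl arrays, a log2 fold change of 1.13 (limma adjusted p = 0.12 over all named probe sets). The dimmer probe set of TRAM1 had 7.25 and 7.07 in shYTHDF3 arrays, against 5.93 and 6.59 in shControl arrays, a log2 fold change of 0.90 (limma adjusted p = 0.14). Both of these ran opposite to the brighter probe set of the same gene and did not pass, so the sign for SEC62 and TRAM1 depends on the probe set. Which transcripts the probe sets detect was not tested.

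**Figure D4:**
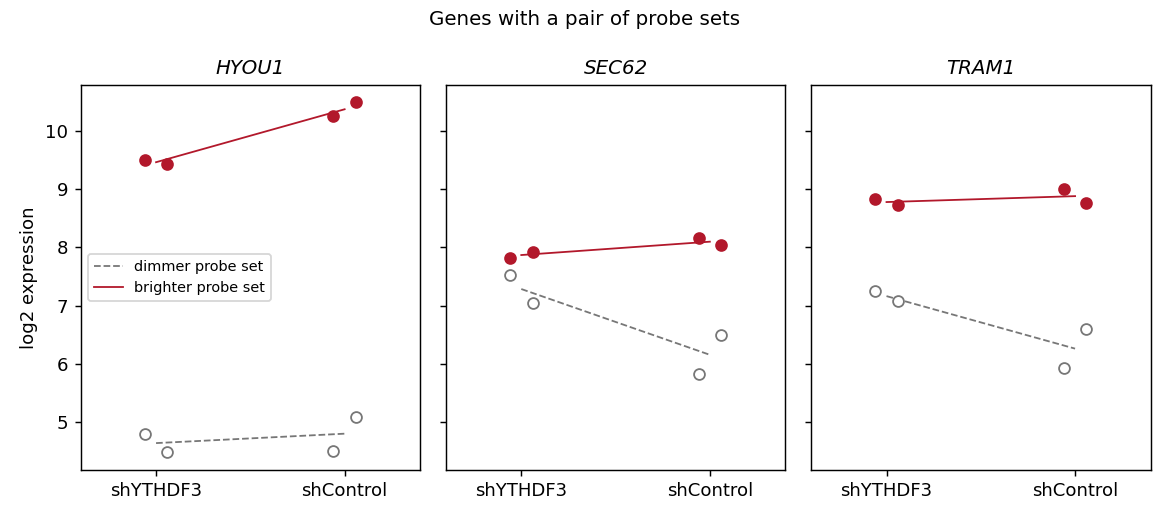
Log2 expression (vertical axis) of both probe sets of HYOU1, SEC62 and TRAM1 in shYTHDF3 and shControl arrays; points are arrays, lines join group means, and filled points with solid lines are the brighter probe set used in the main comparison. The dimmer probe sets of SEC62 and TRAM1 are higher in shYTHDF3 arrays by 1.13 and 0.90, while their brighter ones differ by -0.23 and -0.10.

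Of 4 genes of ER-phagy and UFMylation, UFM1 and DDRGK1 were tested and had opposite signs. UFM1, the modifier itself, had 7.30 and 7.25 in shYTHDF3 arrays, against 7.83 and 7.53 in shControl arrays, a log2 fold change of -0.41 (95% interval -0.75 to -0.06, limma adjusted p = 0.27). DDRGK1, the ER membrane adaptor of the UFM1 ligase, had 6.64 and 6.70 in shYTHDF3 arrays, against 6.42 and 6.12 in shControl arrays, a log2 fold change of 0.40 (95% interval 0.05 to 0.75, limma adjusted p = 0.28). Neither passed. UFL1 and CCPG1 were not analysed here.

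A second list held 119 other ER pathway genes and also covered targeting and N-glycosylation, roles absent from the first list. Of these genes 78 were tested, 1 fell, 0 rose and 77 did not pass, where 0.666% of all tested genes were called lower. Their median log2 fold change was -0.04, and at an unadjusted p under 0.05 the counts were 11 lower (14.1%) and 3 higher, against 8.48% and 6.24% of all tested genes. The gene that fell was ERO1B, an oxidase that recharges disulfide isomerases, with 5.03 and 5.28 in shYTHDF3 arrays, against 7.12 and 6.76 in shControl arrays (3.45-fold, log2 fold change -1.79, SE 0.17, limma adjusted p = 0.0056). CRELD1, a relative of CRELD2, had a log2 fold change of -1.18 with a limma adjusted p of 0.079. OSTC, a subunit of the oligosaccharyltransferase, had a log2 fold change of -0.62 (limma adjusted p = 0.14). By role, 18 further folding genes had a median of -0.14, 11 of targeting and translocation -0.16 and 10 of N-glycosylation -0.15. The 31 further ERAD genes had a median of 0.02 and the 8 of ER-phagy and UFMylation 0.02.

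**Figure D5:**
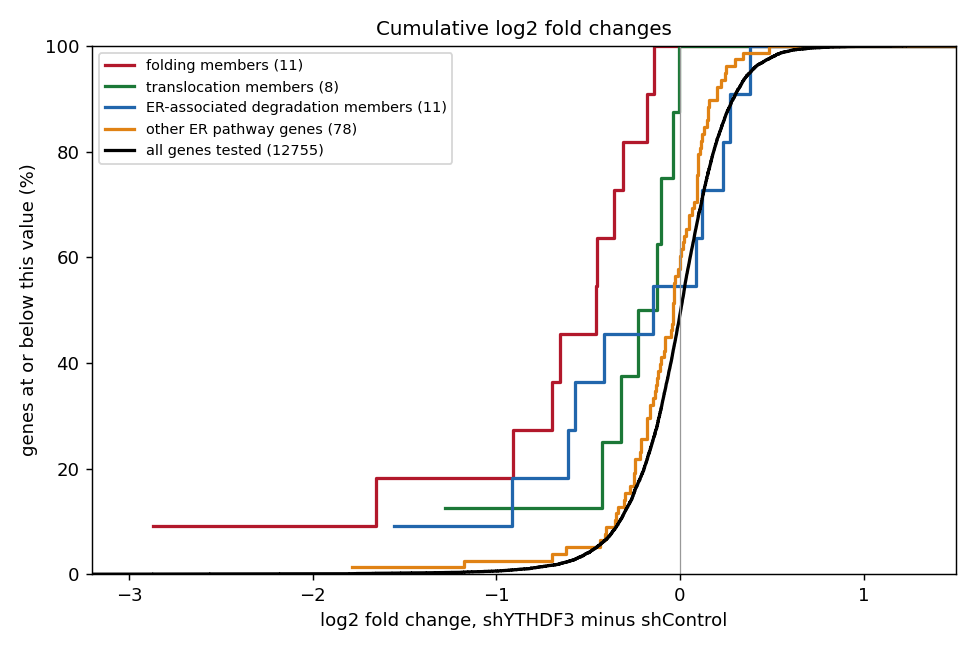
Share of genes (vertical axis, percent) at or below each log2 fold change (horizontal axis, shYTHDF3 minus shControl) for the folding, translocation and ERAD genes, the 78 other ER pathway genes and all 12755 tested genes. The folding curve lies to the left of 0 along its whole length, the ERAD curve crosses the curve of all genes, and the 78 other genes run close to it.

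Probe sets named YTHDF3 numbered 0, so the knockdown labels have no check from the targeted transcript. Of genes upstream of this machinery, the sensor EIF2AK3 (PERK) and the factor XBP1 fell, with log2 fold changes of -1.67 and -0.99, as did DDIT3, the stress factor CHOP, at -3.07 (limma adjusted p = 0.00062). ATF6, ERN1 and ATF4 did not pass, at -0.13, -0.42 and 0.01. The 4 array medians ran from 3.20 to 3.22, and arrays correlated at 0.992 within each group and at 0.986 to 0.987 between groups. Of 8 listed markers of a mesenchymal breast cancer line, the 4 tested, VIM, CD44, AXL and MSN, lay between 8.06 and 12.50 on all arrays. Of the luminal and epithelial markers, ESR1 and PGR lay between 2.57 and 2.94 and KRT8 between 3.84 and 4.56. CLDN3, FOXA1 and GATA3 lay between 4.44 and 5.66 and CLDN7 and KRT19 between 6.37 and 7.17. EPCAM and KRT18 stood at 6.63 to 8.98. Of 10 luminal and epithelial and 3 leukocyte, endothelial and fibroblast markers tested, 0 passed limma's test, and at an unadjusted p under 0.05 CLDN7 was lower and KRT18 higher; CD68 stood at 10.40 to 10.66 on every array. In bulk RNA, fewer cells of a kind and less RNA per cell cannot be told apart.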

How the data were processed

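Total RNA was profiled on 4 arrays, grouped by sample title. The deposited table holds log2 expression per probe set, made with RMA per the submitters' processing notes. Its version and settings, and the genome build, are not stated in the sources at hand. RMA equalises arrays and compresses weak signals, so differences in total RNA are not measured. Platform annotation named 16098 of 53617 probe sets. Each gene took its probe set of highest mean, tested where that mean reached the 30th percentile (2.54). The test was limma 3.58.1 under R 4.3.3 (2 residual and 5.30 prior degrees of freedom), with Benjamini-Hochberg adjustment over 12755 genes. Exact permutation of 2 against 2 arrays cannot go below p = 0.333. The number of arrays limits the precision. The fit was also run on simulated data with independent normal noise, at variances drawn from limma's own fitted prior. That run checks the code and cannot show whether the arrays are independent replicates. Alternatives covered the filter, probe set, normalization, variance trend, threshold, replicate block and left-out arrays.

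The members and lists were chosen with earlier results of these data known. Named genes followed a rule: members past the threshold, the 2 of smallest p and the smallest difference in each role, those with several probe sets, other ER pathway genes past the threshold or among the 3 of smallest p, and upstream sensors and factors; further members are named to account for each.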

Additional observations from a re-analysis of the deposited data

How the results depend on the processing

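Of 448 fold changes recomputed for the 32 genes over 14 alternatives, 7 changed sign, 21 were no longer called and 8 were newly called; 29 genes kept 1 sign throughout. The filter, variance trend, replicate block and threshold settings left each fold change as it was, so they could not change a sign. The probe set settings could move only HYOU1, SEC62 and TRAM1. Many of the 448 values thus had no way to change, and the count of 7 is no measure of stability. Calls among the 32 numbered 0 to 3 with 1 array left out, 1 (SDF2L1) with the replicate block and 8, all lower, with an intensity trend, which added CALR, TXNDC11 and SPCS2. The labels do not say whether same-numbered arrays were paired. Their deviations from the group means correlated at 0.043, which cannot decide this with 2 arrays in each group. Over all genes, lower and higher calls were 85 and 11, against 141 and 26 with the filter at the 50th percentile, 62 and 5 with no filter, 272 and 103 with the trend, 11 and 0 with the block, 196 and 54 at an adjusted p under 0.1, and 0 to 35 and 0 to 2 with 1 array left out. Other ER pathway genes called lower numbered 3 (and 1 higher) with the trend, 0 with the block, 2 at an adjusted p under 0.1 and 0 to 1 with 1 array left out.

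The median of the 32 was -0.32 with the second probe set, -0.36 with cyclic loess and -0.34 to -0.32 with 1 array left out. For translocation it was -0.083 with the mean of all probe sets, -0.083 with the second probe set and -0.25 to -0.15 with 1 array left out. For ERAD it was -0.17 with cyclic loess and -0.24 to -0.054 with 1 array left out, and for disulfide isomerases -0.55 to -0.43. For UFMylation it was 0.013 with quantile normalization and -0.15 to 0.15 with 1 array left out. SEC62 and TRAM1 turned to 0.45 and 0.40 with the mean of all probe sets and 1.13 and 0.90 with the second probe set, and HYOU1 was no longer called with either, at -0.53 and -0.16. With 1 array left out SEC61B ran from -0.20 to 0.19 and TRAM1 from -0.22 to 0.018. The cause was not tested, beyond fewer arrays and other probe sets.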

Other observations

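The promoter search also named genes outside the list. Of all tested genes, 26 had ERSE or ERSE-II in a RefSeq promoter (GRCh38.p14), 5 of them members of the list and 21 not. Of the 21, 3 fell and 0 rose by limma at an adjusted p under 0.05, 9 were lower at an unadjusted p under 0.05, and the groups did not overlap in 11 lower and 2 higher genes. Over all tested genes 0.666% were called lower, 8.48% were lower at an unadjusted p under 0.05, and 22.8% and 22.6% did not overlap as lower and higher. Their median log2 fold change was -0.15. The 3 were ERO1B, described above, FICD and XBP1. FICD, the enzyme that attaches AMP to BiP and removes it, is named after its values were seen. It had 4.81 and 4.74 in shYTHDF3 arrays, against 5.92 and 5.77 in shControl arrays (2.10-fold, log2 fold change -1.07, SE 0.13, limma adjusted p = 0.019). XBP1, the transcription factor whose mRNA is spliced by the ER stress sensor ERN1, had 7.19 and 7.20 in shYTHDF3 arrays, against 8.31 and 8.06 in shControl arrays (log2 fold change -0.99, limma adjusted p = 0.032). SERP1, a small protein of the translocation site, is likewise named after its values were seen; its log2 fold change was -0.63 with a limma adjusted p of 0.11, and the groups did not overlap. Genes with an element and a positive fold change were SYNPO (0.26), LINC03006 (0.19) and RUVBL2 (0.12), and none of these passed. A match is a description of letters in the window, and whether these elements bear on the differences was not tested.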
